A study of Mus musculus with 18 samples.

Results

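The 9 genes described here are known as markers of cell types other than fibroblasts, and each was near 0 counts in uninduced mouse fibroblasts that carry an inducible activator. They are Actc1, Myh3 and Ttn of striated muscle, Pecam1 of endothelium, Itgam and Lyz2 of myeloid cells, Gfap of glia, Adipoq of fat cells, and Myo3b of sensory cells. They make up 9 of the 47937 gene IDs in the deposited count table. They were taken from lists of lineage genes and were selected on their counts in the activator line, near 0 in uninduced and higher in induced libraries, so their values there are a description and carry no test. In the uninduced activator line the 9 genes lay between 0 and 0.372 CPM (counts scaled to a common library size by the TMM method), and in the induced activator line between 0.767 and 23.3 CPM.

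The study aimed a nuclease-dead Cas9 (dCas9), which finds its site without cutting, at the major satellite repeat (MSR) of pericentromeric heterochromatin. All libraries came from mouse embryonic fibroblast (MEF) lines grown under hygromycin in medium with tet-free serum, and every line carried a doxycycline-inducible dCas9 transgene. The induced activator line (dCas9-VPR) had 10 ng/ml doxycycline for 6 h and was set against the untreated activator line. The induced repressor line (dCas9-KM) had 100 ng/ml for 24 h and was set against the untreated repressor line. The induced control line (dCas9-control) had 10 ng/ml for 24 h and was set against the untreated control line. The activator was thus induced for a shorter time than the others, and effector, time and dose cannot be told apart between lines. The guide is not named in the labels, nor do they say whether a line is 1 clone. Each of the 6 groups had 3 libraries, numbered without word on whether they were separate cultures, so the p-values may reflect technical spread between libraries alone.

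Lineage genes of this kind are held silent in fibroblasts by closed chromatin and by the lack of the transcription factors that drive them. In development, master regulators such as MyoD in muscle, PU.1 in myeloid cells and PPARγ in fat cells switch on whole sets of such genes together. VPR joins several transcription activation domains, and it raises transcription of a gene when dCas9 brings it to the promoter.

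The 18 libraries held between 14928765 and 25262912 counts, so 3 counts in a library corresponded to between 0.115 and 0.2 CPM. A filter on low counts left 16216 genes for testing with the edgeR quasi-likelihood test over all 18 libraries. A gene is called below when its Benjamini-Hochberg adjusted p was under 0.05. The 9 genes passed this filter with all libraries, and 0 of the 9 passed without the 3 induced activator libraries, so they were tested at all through the group in which they were high. Fibroblast identity was checked with 12 markers. Col1a1, a chain of type I collagen, had 9372 CPM in induced and 8056 CPM in uninduced activator cells. Of the 12 markers 10 were tested, and 6 were called higher and 2 lower in the activator induction, where 38.2% of all genes tested were called higher and 37.2% lower. The higher calls depend on the scaling: Col1a1, Col3a1, Vim and Dcn were higher with TMM and lower when libraries were scaled to the mitochondrially encoded genes. The 2 markers called lower were Pdgfrb, with a log2 fold change of -1.14 (edgeR adjusted p = 3.63e-19), and Pdgfra, also with -1.14 (edgeR adjusted p = 1.97e-27). The surface marker Thy1 had 1 count in all 18 libraries together, and the matrix gene Lum had between 2 and 15 counts in a group.

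Promoter sequences from RefSeq (GRCm38.p6) are shown for 4 of the 9 genes. They are the 2 that hold TATAAA and the 2 with the fewest CG pairs, so their difference in makeup follows from the choice. Each runs from 250 bases before the RefSeq start to 50 bases after it, 5′ to 3′ on the strand of the gene. That start is the first base of the GENCODE gene for Myh3 and Adipoq, but lies 49 bases inside the GENCODE gene for Lyz2 and 673 bases inside it for Actc1. Capitals mark TATAAA, the core of the TATA box, and CANNTG, the E-box core bound by basic helix-loop-helix factors such as MyoD. Both motifs and GGGCGG, a GC box, were searched on both strands, and matches did not overlap in the sequences printed. The windows are chr2:114052826-114053125 on the minus strand for Actc1, chr11:67078050-67078349 on the plus strand for Myh3, chr10:117282223-117282522 on the minus strand for Lyz2 and chr16:23146286-23146585 on the plus strand for Adipoq.
Actc1: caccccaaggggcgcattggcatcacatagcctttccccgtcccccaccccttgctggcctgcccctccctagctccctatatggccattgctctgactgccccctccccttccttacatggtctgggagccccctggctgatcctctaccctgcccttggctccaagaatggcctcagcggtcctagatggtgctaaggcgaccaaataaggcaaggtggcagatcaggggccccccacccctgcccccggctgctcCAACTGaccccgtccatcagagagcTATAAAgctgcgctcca
Myh3: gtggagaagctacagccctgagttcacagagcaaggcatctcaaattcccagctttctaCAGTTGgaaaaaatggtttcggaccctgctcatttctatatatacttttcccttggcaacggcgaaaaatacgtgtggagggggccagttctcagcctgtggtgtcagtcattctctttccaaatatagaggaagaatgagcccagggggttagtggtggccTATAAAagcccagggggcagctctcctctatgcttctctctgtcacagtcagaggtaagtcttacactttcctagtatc
Lyz2: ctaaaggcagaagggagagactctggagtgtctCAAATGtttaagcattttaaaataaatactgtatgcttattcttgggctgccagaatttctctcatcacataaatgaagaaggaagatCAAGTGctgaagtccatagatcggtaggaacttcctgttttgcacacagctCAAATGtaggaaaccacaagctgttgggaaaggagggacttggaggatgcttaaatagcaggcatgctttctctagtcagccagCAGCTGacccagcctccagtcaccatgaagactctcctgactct
Adipoq: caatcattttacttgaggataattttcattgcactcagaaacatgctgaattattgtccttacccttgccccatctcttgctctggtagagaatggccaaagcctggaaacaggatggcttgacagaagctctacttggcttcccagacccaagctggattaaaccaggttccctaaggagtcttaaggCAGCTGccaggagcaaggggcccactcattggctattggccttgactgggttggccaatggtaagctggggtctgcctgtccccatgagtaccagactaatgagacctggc

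A RefSeq promoter was matched for 8 of the 9 genes, all but Pecam1. Among those not printed, the RefSeq start of Gfap lies 3712 bases inside the GENCODE gene, and those of Ttn, Itgam and Myo3b are its first base. TATAAA was present in 2 of the 8, against 13.6% of 32851 promoters of the same length. In Myh3 it began at position -29 and in Actc1 at position 33, counted from 0 at the RefSeq start. CANNTG was present in 6 of the 8, against 72.3% of all promoters, and GGGCGG in 1 of the 8, Itgam, against 35.7%. The number of CG pairs ranged from 0 in Adipoq and 1 in Lyz2 to 8 in Ttn, with a median of 5 against 7 over all promoters. None of the 8 promoters held a 15-base word of the satellite-bearing gene model Gm10800, a feature of 22 of all promoters. These matches describe letters in a window and say nothing of binding.

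Among the 3 muscle genes, Actc1 (ENSMUSG00000068614, chr2:114047282-114053548, minus strand) encodes cardiac alpha-actin, the thin-filament actin of the heart and of embryonic skeletal muscle. It had 31, 25 and 48 counts in the induced activator libraries, which is 1.71, 1.67 and 2.45 CPM, against 0, 0 and 1 count in the uninduced activator libraries. No library of the repressor or control line had a count. Every induced activator library was therefore above every other library in the study, and the ratio of levels in induced over uninduced activator cells was 132 (exact 95% interval 23.1 to 5247, from 104 against 1 count). Such intervals, and the floors used below, cover counting error only.

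Myh3 (ENSMUSG00000020908, chr11:67078300-67102291, plus strand) encodes the embryonic myosin heavy chain. It had 33, 23 and 25 counts in induced activator libraries (1.82, 1.53 and 1.28 CPM), against 0, 1 and 0 counts in uninduced ones. In the other 12 libraries it had between 0 and 4 counts, so the groups did not overlap, and the activator ratio was 102 (17.9 to 4098). Ttn (ENSMUSG00000051747, chr2:76703980-76982547, minus strand) encodes titin, the giant spring of the sarcomere. It had 72, 62 and 80 counts in induced activator libraries (3.96, 4.14 and 4.09 CPM), against 5, 6 and 3 counts in uninduced ones (0.192, 0.248 and 0.182 CPM). Ttn and Pecam1 were the 2 of the 9 genes with at least 3 counts in every uninduced activator library, and the Ttn ratio of 19.3 (11.3 to 36.0) was the smallest among the 7 genes with a ratio rather than a bound. One library outside the activator line stood up: uninduced repressor library 1 had 19 Ttn counts (0.931 CPM), against 5 and 5 in the other libraries of its group. It remained below every induced activator library.

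Pecam1 (ENSMUSG00000020717, chr11:106654217-106750628, minus strand), the adhesion molecule CD31 at endothelial cell junctions, was the highest of the 9 genes. It had 408, 349 and 358 counts in induced activator libraries (22.4, 23.3 and 18.3 CPM), against 7, 9 and 3 counts in uninduced ones (0.268, 0.372 and 0.182 CPM). Repressor and control libraries had between 3 and 10 counts. The induced activator libraries stood clear of the rest, and the ratio was 74.3 (47.3 to 124).

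Itgam and Lyz2 are myeloid genes. Itgam (ENSMUSG00000030786, chr7:128062640-128118491, plus strand) encodes integrin alpha M, or CD11b, the adhesion receptor of macrophages and neutrophils. It had 14, 14 and 15 counts in induced activator libraries (0.77, 0.934 and 0.767 CPM), against 0 counts in all uninduced ones, where a count of 0 over the group allows up to 0.0450 CPM. With that floor of 3 counts over the group the level was at least 18.1-fold higher. It was the lowest of the 9 genes in CPM, and the induced activator libraries remained above the others, which had between 0 and 2 counts. Lyz2 (ENSMUSG00000069516, chr10:117277331-117282321, minus strand) encodes lysozyme M, an antibacterial enzyme of macrophages. It had 41, 34 and 27 counts in induced activator libraries (2.26, 2.27 and 1.38 CPM), against 0, 1 and 0 counts in uninduced ones, a ratio of 129 (22.7 to 5147). The next highest libraries were those of the uninduced repressor line, with 4, 6 and 3 counts.

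Gfap (ENSMUSG00000020932, chr11:102887336-102900912, minus strand) encodes the intermediate filament of astrocytes. It had 105, 114 and 125 counts in induced activator libraries (5.78, 7.61 and 6.39 CPM), against 3, 2 and 0 counts in uninduced ones, a ratio of 87.1 (36.9 to 269.8). Other lines had between 0 and 5 counts, again below every induced activator library. Adipoq (ENSMUSG00000022878, chr16:23146536-23158028, plus strand) encodes adiponectin, a hormone secreted by fat cells. It had 53, 33 and 34 counts in induced activator libraries (2.92, 2.20 and 1.74 CPM), against 0 counts in the uninduced ones, which put it at least 50.6-fold higher. In the other 12 libraries it had a single count in 1 uninduced repressor and 1 uninduced control library. Myo3b (ENSMUSG00000042064, chr2:70039126-70429198, plus strand) encodes a class III myosin found at the tips of actin protrusions in hair cells and photoreceptors. It had 215, 180 and 137 counts in induced activator libraries (11.8, 12.01 and 7.01 CPM), against 0, 0 and 1 count in uninduced ones. Its ratio of 673 (120 to 26639) was the largest of the 7, though its interval overlaps those of Actc1, Myh3, Lyz2, Pecam1 and Gfap.

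**Figure D1:**
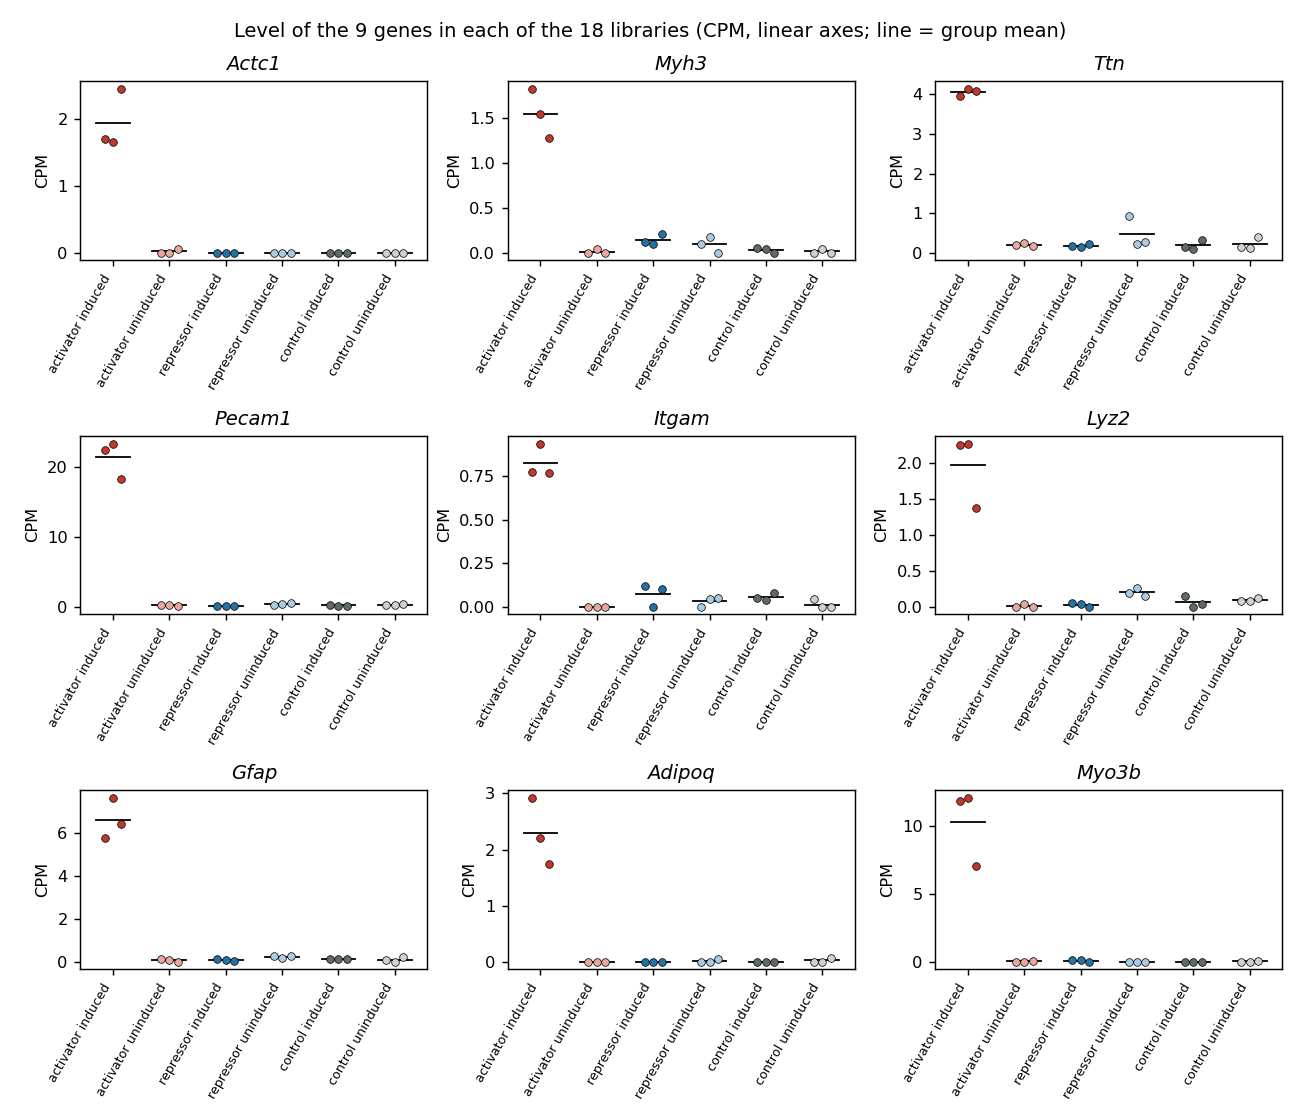
CPM of each of the 9 genes in every library, 1 panel a gene, with the 6 groups along the horizontal axis and 1 point a library and a line at the group mean. The genes were selected on the rise in the activator line, where 38.2% of all genes tested were called higher than in uninduced activator libraries. In each panel the 3 induced activator libraries lie above the 15 others, from Itgam at 0.767 to 0.934 CPM up to Pecam1 at 18.3 to 23.3 CPM. The selection favours that separation, and the share of all genes that have it is not given here.

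In bulk RNA, few cells with many copies of a transcript and many cells with few copies cannot be told apart, so these levels do not say how many fibroblasts read a gene, nor whether 1 cell reads more than 1 of them. The gap between the lowest induced activator library and the highest of the 15 other libraries was 4.26-fold for Ttn, 5.14-fold for Lyz2, 6.03-fold for Myh3 and 6.35-fold for Itgam. It was 21.3-fold for Gfap, 26.5-fold for Adipoq, 27.5-fold for Actc1, 33.7-fold for Pecam1 and 58.0-fold for Myo3b. The selection of the genes on the activator line favours such gaps, and the share of all genes with a gap is not given here.

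Levels of different genes were compared per kilobase of annotated exon (CPM per kb), since long transcripts give more reads. Pecam1 led with 3.43 ± 0.428 CPM per kb in induced activator libraries (SD, n = 3, as for the values that follow). Adipoq, Gfap, Lyz2, Myo3b and Actc1 followed close together: Adipoq with 1.65 ± 0.429, Gfap with 1.56 ± 0.221, Lyz2 with 1.496 ± 0.387, Myo3b with 1.46 ± 0.403 and Actc1 with 1.20 ± 0.274 CPM per kb. Neighbours among these 5 did not differ beyond their spread, and their ranges over libraries overlapped. Myh3 had 0.255 ± 0.0443 and Itgam 0.164 ± 0.0190 CPM per kb, and their ranges, 0.211 to 0.300 and 0.153 to 0.186, did not overlap. The place of Itgam is uncertain, since 72.4% of the 50-base stretches of its transcript also occur in the overlapping model Gm49368. How reads of such stretches were counted is not given. Titin, with 116825 bases of exon, had 0.0348 ± 0.000784 CPM per kb and came last. On the scale of CPM without length, the 9 genes stood between the 13.7th percentile (Itgam) and the 58.6th percentile (Pecam1) of genes tested in induced activator libraries.

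**Figure D2:**
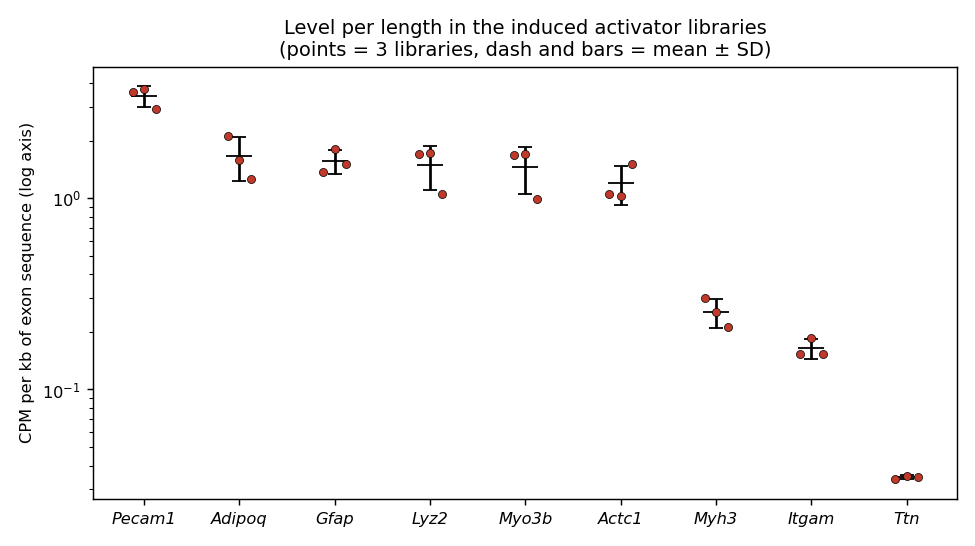
Level per kilobase of annotated exon in the 3 induced activator libraries, on a log axis, as points with mean and SD, for the 9 genes in order of their mean. Pecam1 stands above the rest, 5 genes share a range from 1.20 to 1.65 CPM per kb, and Myh3, Itgam and Ttn lie below.

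Agreement between the 3 induced activator libraries differed from gene to gene. The coefficient of variation was 27.6% for Myo3b, where counting error alone would give 7.51%, and 12.5% for Pecam1, where it would give 5.19%. For Ttn it was 2.25% against 11.8% from counting, and for Itgam 11.6% against 26.4%. Induced library 3 was the lowest of the 3 for 6 of the 9 genes and induced library 2 the highest for 6 of them. Actc1 went the other way, with its highest level in library 3.

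The repressor and control libraries did not enter the choice of the 9 genes, and comparisons among them show how the genes stood under doxycycline with dCas9 alone or with the repressor. The 9 genes passed the filter only through the induced activator libraries and had between 0 and 19 counts in the libraries compared here, so few calls could be made and nothing is read from their number. In the repressor induction 0 of 9 were called, where 9.81% of all genes were called (5.21% higher and 4.59% lower). In the control induction 0 of 9 were called, against 0.463% of all genes (0.253% higher and 0.21% lower), and in the difference between the repressor and control inductions 0 of 9, against 2.73% (1.19% higher and 1.54% lower). In uninduced repressor cells set against uninduced control cells 0 of 9 were called as well, against 1.56% of all genes (0.863% higher and 0.697% lower). All 4 counts are from edgeR, and DESeq2 also called 0 wherever it gave an adjusted p. A missed threshold does not show that the genes stayed level.

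An unadjusted p under 0.05 was reached by 3 of the 9 genes in the repressor induction, where 21.0% of all genes reached it, and by 0 in the control induction and in the difference between the 2 inductions. Lyz2 had 1, 1 and 0 counts in induced and 4, 6 and 3 counts in uninduced repressor libraries, a log2 fold change of -2.37 (SE 0.89, edgeR adjusted p = 0.0799). Ttn had 3, 3 and 4 counts in induced against 19, 5 and 5 in uninduced repressor libraries, -1.37 on the log2 scale (SE 0.53, edgeR adjusted p = 0.0938). That value rested on uninduced library 1: without it the log2 fold change was -0.43 (adjusted p = 0.81), while without uninduced library 2 Ttn was called (adjusted p = 0.034). Pecam1 had 3, 4 and 4 counts in induced against 6, 9 and 10 in uninduced repressor libraries, -1.02 on the log2 scale (SE 0.50, edgeR adjusted p = 0.222). Between the uninduced repressor and control lines, Ttn was the 1 gene with an unadjusted p under 0.05 (1.21 on the log2 scale, edgeR adjusted p = 0.279), where 11.9% of all genes had one. Summed over the 9 genes, uninduced repressor libraries held 90 counts, against 44 in the induced repressor, 42 in the uninduced activator, 47 in the induced control and 48 in the uninduced control libraries.

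**Figure D3:**
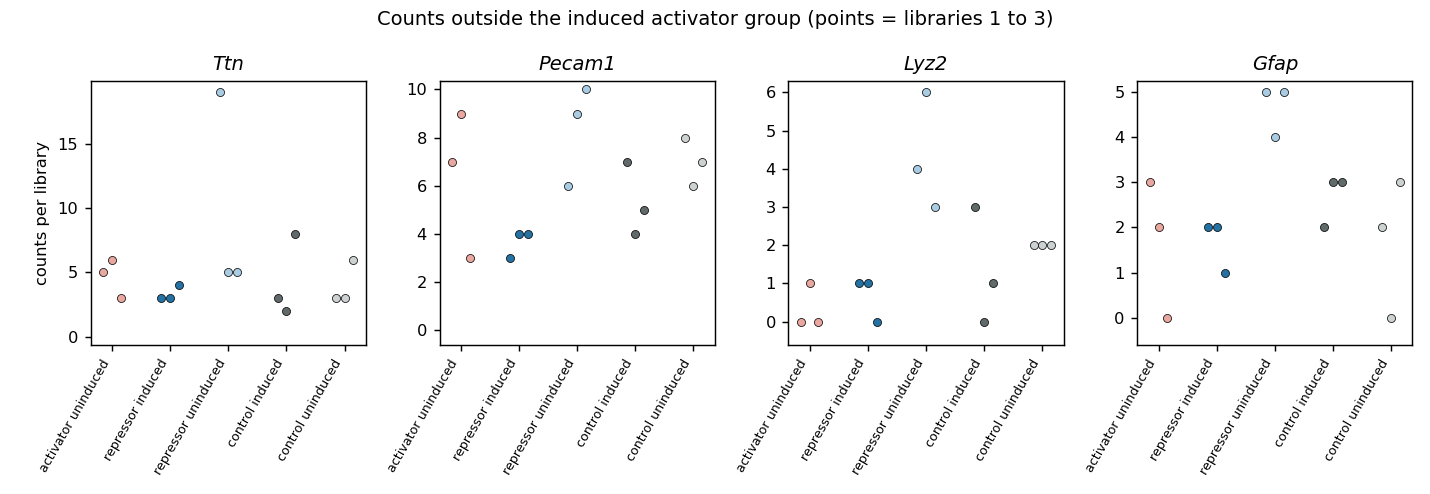
Counts per library of Ttn, Pecam1, Lyz2 and Gfap in the 5 groups other than the induced activator, 1 panel a gene and 1 point a library, with groups along the horizontal axis. Counts stay between 0 and 19, and the single highest point is Ttn in uninduced repressor library 1.

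Set beside the same gene in other lines, where time and dose differ, the induced activator level was 87.5-fold that of induced control cells for Pecam1 (53.6 to 154), 54.0-fold for Gfap (27.1 to 126), 20.7-fold for Ttn (11.8 to 39.4) and 13.5-fold for Itgam (4.90 to 51.8). Actc1, Adipoq and Myo3b had no count in induced control cells and were at least 43.5-fold, 50.2-fold and 223-fold higher in induced activator cells. Against induced repressor cells the ratio was 107 for Pecam1 (59.4 to 214), 140 for Myo3b (54.4 to 516) and 10.7 for Myh3 (5.16 to 25.5).

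To place the 9 genes among their lineages, 156 further genes in 12 lists were read, 114 that are structural, surface or secreted products and 42 that are transcription factors. In the activator induction 75.3% of all genes tested were called, 38.2% higher and 37.2% lower, so a call is common there and a share near that background says nothing of a list. Among products 43 of 114 were tested, and 23 were called higher, 10 lower and 10 not at all, with a median log2 fold change of 0.47 against 0.004 over all genes. Among regulators 12 of 42 were tested, and 2 were called higher, 9 lower and 1 not at all, with a median of -0.46. The number of regulators called higher was between 2 and 5 when single libraries were left out, 5 in 15 of the 18 cases, and 8 with no filter on low counts, so it depends on these choices. A silent gene enters the test only through the group where it is high, so the count of products is described and not read as support: of all tested genes under 0.5 CPM in uninduced activator cells, 63% were called higher. The same holds for single listed genes of this kind, of which 18 were tested and 16 called higher. Tal1, Mb and Lyz1 are among them, and their values below are a description.

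Levels can be read without that filter. Of the 156 listed genes 119 were under 0.5 CPM in uninduced activator cells, and 9 of the 119 (7.56%) reached 1 CPM in induced activator cells. Over all gene IDs 824 of 33528 did so (2.46%), and over protein-coding ones 554 of 10236 (5.41%). In the other 4 groups between 4 and 9 of the 33528 IDs did. Products gave 8 of 87 (9.20%) and regulators 1 of 32 (3.13%), Tal1, and 39 of the 119 genes had no count in the induced activator libraries. The other 110 of the 119 stayed under 1 CPM, while 8 of the 9 genes, chosen for being higher, averaged above it.

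**Figure D4:**
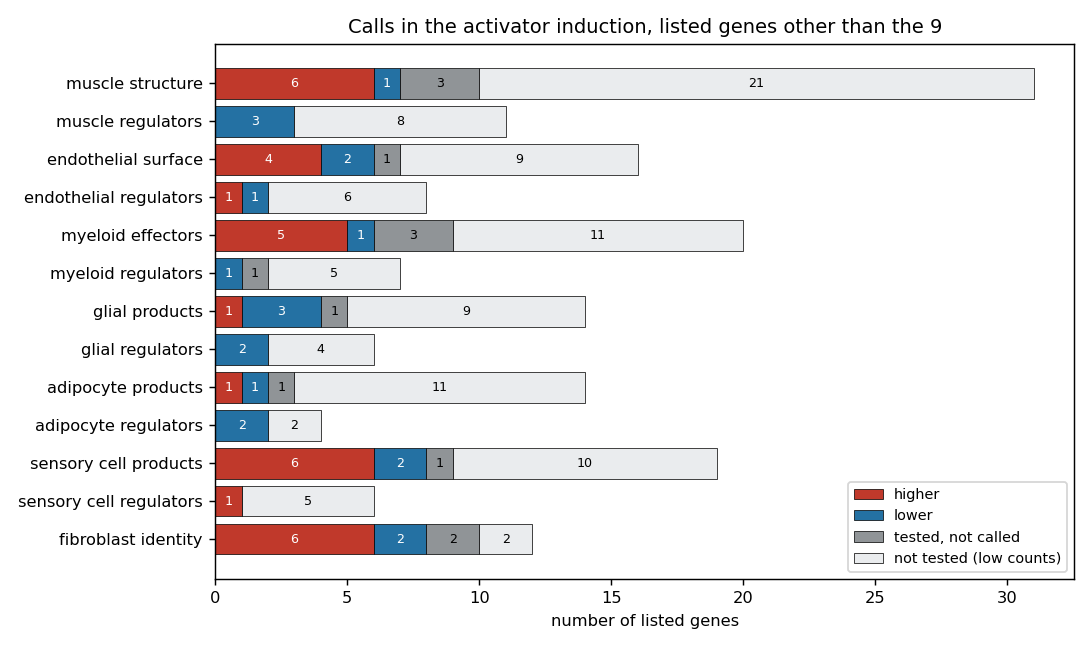
Number of listed genes (horizontal axis) called higher, called lower, tested but not called, and not tested in the activator induction, for each lineage list and the fibroblast markers. Over the lists of products 23 genes were called higher and 10 lower, and over the lists of regulators 2 were called higher and 9 lower, with 8 higher if no filter on low counts was used. Of all genes tested 38.2% were called higher and 37.2% lower.

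In uninduced activator cells set against uninduced control cells, 4 of 55 tested lineage genes were called higher and 4 lower, where 19.5% of all genes were called (8.92% higher and 10.5% lower).

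In muscle, 6 of 10 tested structural genes rose and 1 fell, where 38.2% of all genes tested were called higher and 37.2% lower. Of the 6 that rose, 3 were under 0.5 CPM in uninduced activator cells, as were genes of which 63% were called higher over the whole table. Mb, myoglobin, had 1.27 ± 0.488 CPM in induced and 0.0138 CPM in uninduced activator cells, a log2 fold change of 5.91 (SE 0.67), and Neb, nebulin of the thin filament, had 1.96 and 0.245 CPM (2.89). Acta1, skeletal alpha-actin and the nearest relative of Actc1, rose less, with 3.26 and 1.48 CPM (1.17). Tnni1, a slow troponin, rose to 1.06 CPM against 0.447 CPM (1.25), a call that was lost without induced activator library 1 (0.73, adjusted p = 0.12). Tnnt2, cardiac troponin T, fell to 4.03 CPM against 6.59 CPM (-0.69). Of the factors that drive these genes Myod1, Myf5 and Mef2c had 0 counts in both groups and Myog had 0 counts in induced and 1 in uninduced activator cells. Of the 11 muscle regulators 6 had no count in induced and 6 had none in uninduced activator cells. The 3 muscle regulators tested fell: Pax3 with 15.8 and 24.5 CPM (-0.63), Gata4 (-0.23) and Hand2 (-0.87). Gata4 was not called with upper-quartile scaling (-0.13), and Hand2 was not called without uninduced activator library 1 (-0.65), induced library 1 (-0.76) or induced library 3 (-0.54).

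In the endothelial lists, 4 of 7 tested surface genes rose and 2 fell, where 38.2% of all genes tested were called higher and 37.2% lower. Of the 4 that rose, 2 were under 0.5 CPM in uninduced activator cells. Both falls were fragile: Flt1, a VEGF receptor (-0.13), was not called with size factors (-0.08), upper quartiles (-0.02), DESeq2 (-0.08) or without induced activator library 2 (-0.11), and Ptprb, a receptor phosphatase (-0.52), was not called with DESeq2 (-0.48) or without uninduced activator library 2 (-0.37). Icam2, an adhesion molecule, had 1.04 and 0.0404 CPM in induced and uninduced activator cells (4.34 on the log2 scale), Esam, a junction protein, 4.14 and 0.978 CPM (2.09), and Tek, the angiopoietin receptor, 0.905 and 0.226 CPM (1.90). The rise of Egfl7 (0.47) was fragile as well. It was not called with total counts (0.24), and was -0.27 and not called when libraries were scaled to mitochondrially encoded genes. Cdh5, the VE-cadherin that defines endothelium, had 1 count in each group, and Erg, Fli1 and Sox17 had none. These were the 3 of the 8 endothelial regulators without a count. Sox7, Sox18 and Etv2 had counts in both groups, but too few to be tested. Tal1, a factor of blood and endothelial precursors, was 1 of the 2 regulators called higher, with 6.40 ± 0.614 CPM in induced and 0.0478 CPM in uninduced activator cells from 336 against 3 counts (6.96, SE 0.35). Gata2 fell (-0.28).

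In the myeloid lists, 5 of 9 tested effectors rose and 1 fell, where 38.2% of all genes tested were called higher and 37.2% lower. The 5 that rose were all under 0.5 CPM in uninduced activator cells. Of all tested genes at that level 63% were called higher, so the count is a description. The fall was that of Cd14, a receptor for bacterial lipopolysaccharide (-1.22), which was not called with DESeq2 (-1.19) or without uninduced activator library 1 (-1.12), and between 0 and 3 effectors were called lower when single libraries were left out, 0 without uninduced library 1, 2 without uninduced library 2 and 3 without induced library 3. Lyz1, the lysozyme gene beside Lyz2, had 2.14 ± 0.409 CPM in induced and 0.0203 CPM in uninduced activator cells (6.65, SE 0.57). Ctss, the protease cathepsin S, had 1.91 and 0.0128 CPM (6.48), and Itgax, or CD11c, 1.36 ± 0.209 and 0.0404 CPM (4.74). Tyrobp, an adaptor of myeloid receptors, had 0 counts, and Adgre1, the F4/80 antigen of macrophages, had 1 count in induced and 0 in uninduced activator cells. Of the 20 effectors 2 had no count in induced and 5 had none in uninduced activator cells. Spi1, which encodes PU.1, had 33 counts in induced and 0 in uninduced activator cells, and Irf8, a factor of the same lineage, had 30 and 0, though neither passed the filter. Runx1, a blood factor that fibroblasts also express, fell to 20.7 CPM against 60.5 CPM (-1.54).

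In the glial lists 1 of 5 tested products rose, Aldoc, a brain aldolase, with 11.9 and 1.07 CPM in induced and uninduced activator cells (3.45), and 3 fell, among them Mbp, myelin basic protein, with 13.9 and 26.8 CPM (-0.97). Over all genes tested 38.2% were called higher and 37.2% lower, for comparison with these lists and the adipocyte lists. Aqp4, the water channel of astrocytes, and Olig2 had 0 counts in both groups. Sox9 fell to 2.07 CPM against 5.82 CPM (-1.47), and Nfia fell as well (-0.24). In the adipocyte lists 1 of 3 tested products rose, 1 fell and 1 was not called, with a median log2 fold change of -0.03. Lpl, lipoprotein lipase, rose slightly to 166 CPM against 133 CPM (0.32 with TMM, but -0.42 when scaled to mitochondrially encoded genes). Lipe fell (-0.45, edgeR adjusted p = 0.0179). It was not called with upper quartiles (-0.35), DESeq2 (-0.40) or without uninduced activator library 1 (-0.38) or induced library 3 (-0.40). Fabp4 and Retn had 30 counts each in induced and 1 each in uninduced activator cells, and Lep had 23 and 3, and these 3 secreted or lipid-binding products were not tested. Pparg had 3 and 5 counts, Cebpb fell to 45.2 CPM against 116 CPM (-1.36) and Ebf2 fell (-0.79).

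In the sensory lists, 6 of 9 tested products rose and 2 fell, where 38.2% of all genes tested were called higher and 37.2% lower. Of the 6 that rose, 4 were under 0.5 CPM in uninduced activator cells, where 63% of all tested genes were called higher. Strc, stereocilin of hair bundles, rose by 3.90 on the log2 scale. Myo15, another myosin of hair cell protrusions, had 6.51 and 0.488 CPM in induced and uninduced activator cells (3.73). Sag, the arrestin of photoreceptors, had 12.8 and 2.44 CPM (2.34). Cdh23, a tip-link cadherin, fell (-1.13), and so did Myo7a (-0.22). Gfi1, a zinc-finger repressor needed by hair cells and blood precursors, rose to 0.888 CPM against 0.134 CPM (2.80). Its log2 fold change was as large in the control induction (2.91, SE 1.07), though not called there (edgeR adjusted p = 0.258). Uninduced activator cells set against uninduced control cells gave 2.46 for Gfi1, also not called. Atoh1, the hair cell master regulator, had 0 counts in both activator groups. Of the 6 sensory regulators 1 had no count in induced and 2 had none in uninduced activator cells. Pou4f3, Crx, Nrl and Neurod1 had counts in induced activator cells, but too few to be tested.

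**Figure D5:**
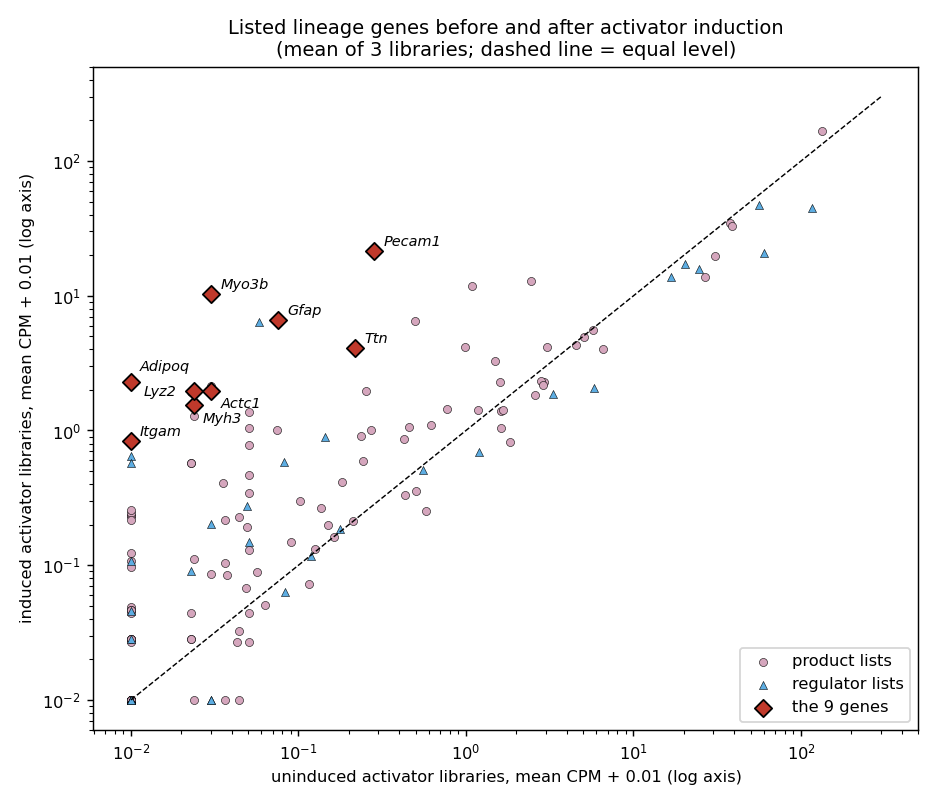
Mean CPM + 0.01 in induced (vertical axis) and uninduced (horizontal axis) activator libraries for the 9 genes (diamonds) and the genes of the product and regulator lists, both axes on a log scale, with a dashed line of equal level. The 9 genes lie at the left, above the diagonal, with Tal1, Lyz1, Ctss and Mb among the listed genes near them.

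Near the 9 genes on the chromosome, the nearest protein-coding gene on each side gave 18 neighbours. Of these 12 were tested, and 7 were called higher and 3 lower, where 38.2% of all genes tested were called higher and 37.2% lower. The other 6 had too few counts to be tested. Itgax and Lyz1, near 0 in uninduced activator cells, entered the test through the induced activator libraries. Of all such tested genes, under 0.5 CPM before induction, 63% were called higher. The count of neighbours is therefore a description from which nothing is read. The largest rises were next to myeloid genes. Trim72, a membrane repair protein of muscle lying 51606 bp from Itgam, had 18.3 CPM in induced and 0.616 CPM in uninduced activator cells (4.94, edgeR adjusted p = 2.26e-43). Itgax lies on the other side of Itgam, and Lyz1 lies 5475 bp from Lyz2. Away from these, changes were small: Aqr beside Actc1 rose by 0.37, and Plekha3, Rfc4 and Ubr3 by 0.32 each, and these 4 were lower when libraries were scaled to mitochondrially encoded genes. St6gal1 beside Adipoq fell (-0.72) and Ccdc141 beside Ttn fell (-0.32). Kif18b beside Gfap was called lower (-0.11), but not with size factors (-0.07), upper quartiles (-0.01), DESeq2 (-0.07) or without uninduced activator library 2 (-0.08) or induced library 1 (-0.08). Myh2 beside Myh3 had 0 counts in both groups, and Gjd2 beside Actc1 had 4 counts in induced and 0 in uninduced activator cells.

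Some reads could belong to an overlapping or related gene, since the strand setting of the counting is not given in the sources used here. Gm26668 on the opposite strand within Gfap had 101 counts in induced and 4 in uninduced activator cells, and Gm13938, antisense within Ttn, had 31 and 3, so reads of each pair cannot be told apart. Gm13631, on the same strand within Myo3b, had 61 and 0 counts. Of the 50-base words in Itgam transcripts 72.4% are shared with another gene, most with the overlapping model Gm49368, which had 7 and 0 counts. The share was 15.4% for Lyz2, most with Lyz1, 4.81% for Myh3 and 4.04% for Myo3b, and 0% for Actc1, Ttn, Pecam1, Gfap and Adipoq. Among related genes, Acta2 of smooth muscle had 559 CPM in induced and 363 CPM in uninduced activator cells (0.62), Actg2 had 4.83 and 3.09 CPM (0.67), and Myo3a had 0 counts in both groups.

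By position, 3 of the 9 genes lie on chromosome 2, which holds 8.08% of genes tested, and 3 on chromosome 11, which holds 7.87%. Mouse chromosomes carry the satellite repeats at the end where coordinates begin, and the gene closest to that end, Adipoq, starts 23.1 Mb from the first base of its chromosome. Gene spans ran from 4991 bp for Lyz2 to 390073 bp for Myo3b. Titin transcripts held 12 words of 15 bases shared with Gm10800, 3 of them distinct, and transcripts of the 8 other genes held 0.

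Over the 18 libraries, the gene most like Actc1 in log2 CPM was Gm136 (Pearson r = 0.997), followed by 4930467E23Rik (0.996). Myh3 was closest to Dctn1 (0.947) and Glo1 (0.940), Ttn to Akr7a5 (0.968) and Rnf222 (0.960), and Pecam1 to Hnrnpc (0.989) and Uba1 (0.988). Itgam was closest to Herpud2 (0.954) and P4ha1 (0.949), and Lyz2 to Dyrk1a (0.930) and Rab11fip4 (0.925). Gfap was closest to Trpm6 and Ropn1l (0.957 each), Adipoq to Gm5705 (0.987) and Bpifb2 (0.985), and Myo3b to Mia3 (0.981) and Gm13631 (0.979). An r of at least 0.95 was reached by 844 other genes each for Actc1 and Pecam1, 542 for Adipoq and 329 for Myo3b. The number was 8 for Ttn, 6 for Gfap, 1 for Itgam and 0 for Myh3 and Lyz2. For the first 4 the named genes are thus not particular. Among the 36 pairs of the 9 genes r ranged from 0.732 to 0.982, with a median of 0.861. These values describe a contrast of 3 libraries against 15 that all of these genes share, along with library depth, and they carry no p.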

How the data were processed

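RNA of 18 libraries was measured: per the labels' protocols, total RNA was taken up in TRI Reagent, treated with DNase and made into stranded, rRNA-depleted libraries read as pairs. The deposited table holds whole-number read counts per gene ID, not normalized, and mm10 is the genome build per the submitters' processing notes. For the aligner, counter, annotation and strand setting, nothing is given in the sources used here. Symbols and 1-based GRCm38 coordinates came from GENCODE M21, which held 47310 of the 47937 IDs, and the other 627 held 0.0423% of counts. Between 14928765 and 25262912 counts were present per library. Counts were scaled by TMM and filtered with filterByExpr, and tested with edgeR 4.0.16 (glmQLFit, robust, and glmQLFTest, R 4.3.3), 1 coefficient per group over 18 libraries, 12 residual degrees of freedom, Benjamini-Hochberg over 16216 genes, after a test on simulated data. In that simulation few genes changed, in both directions alike, and none of them was near 0 counts. It therefore does not bear on genes near 0 or on scaling when most genes change. The common biological coefficient of variation was 0.0246. Ratios of group sums have exact conditional 95% binomial intervals, and a group at 0 was set to a floor of 3 counts over the group. Genes were named by rule: the 9 members, the up to 4 most raised and 2 most lowered called genes of a list, every called regulator, the nearest neighbours, related copies and the 2 most alike genes of each member. Genes of a list at or near 0 and overlapping gene models were named after their values were seen. The members and lists were chosen with earlier results of these data known. Alternatives were DESeq2 1.42.0, other scalings, no filter, the compared groups alone, replicate blocks and leaving out each library. Some genes that the naming rule would take are not reported here.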

Additional observations from a re-analysis of the deposited data

Results flagged for a closer look

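Of the 55 tested genes of the lineage lists, 1 was called higher and 1 lower for a difference between the repressor and control lines in the change on induction (an interaction term in edgeR), where 2.73% of all genes were called. Both lines were induced for 24 h at doxycycline doses that differ. Des, the muscle intermediate filament desmin, had a difference of 1.21 on the log2 scale (SE 0.31, adjusted p = 0.0106), from a log2 fold change of 1.10 in the repressor and -0.12 in the control line. In the repressor line it had 2.56 CPM in induced and 1.19 CPM in uninduced libraries, and DESeq2 did not call the difference. Slc1a3, a glutamate transporter of glia, had a difference of -0.52 (adjusted p = 3.45e-07), from -0.61 in the repressor and -0.09 in the control line. Of the 9 genes 0 were called in that comparison.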

How the results depend on the processing

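Under 27 settings the log2 ratios of the 9 genes in induced over uninduced activator libraries lay between 3.44 (Itgam, a bound) and 9.63 (Myo3b), values that the choice of the genes used and that support nothing. In the repressor induction between 0 and 1 of the 9 genes were called when single libraries were left out (Ttn, without uninduced library 2), and in the control induction, the difference of the 2 inductions and the uninduced repressor line against the uninduced control line the count was 0 throughout. Over all genes tested, deviations of same-numbered induced and uninduced libraries of a line had correlations between -0.0230 and 0.0245. Counting noise is part of such deviations, so these values cannot exclude a pairing that touches few genes. A replicate block across lines moved the genes called lower in the control induction to 53 and no other count by over 1.5 times.

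Scaling moved the median log2 fold change of all genes in the activator induction from 0.004 with TMM to 0.047 with size factors, 0.108 with upper quartiles, -0.219 with total counts and -0.735 with mitochondrially encoded genes, and the share of calls that were higher was 50.7%, 53.8%, 58.0%, 32.8% and 9.78%. With total counts 3955 genes were called higher in the activator induction, 407 lower in the repressor induction, 76 higher and 21 lower in the control induction, and 79 higher in the uninduced repressor line, and Col1a1 (-0.0050) and Sco1 (-0.19) changed sign. Scaled to mitochondrially encoded genes, calls were 1405 higher and 12966 lower in the activator induction, 348 and 353 in the repressor induction, 3 higher in the control induction, 102 and 63 in the difference of the 2 inductions, 38 and 41 in the uninduced repressor line and 267 and 2995 in the uninduced activator line. Under it Egfl7 (-0.27), Lpl (-0.42), Dcn (-0.14), Col3a1 (-0.41), Vim (-0.49), Col1a1 (-0.52), Aqr (-0.37), Sco1 (-0.71), Plekha3 (-0.42), Rfc4 (-0.42) and Ubr3 (-0.42) changed sign. Tex2, not called, was 0.020 with size factors, 0.081 with upper quartiles and 0.021 with DESeq2, against -0.023 with TMM, and Sco1 was -0.0084 without a filter, where 45 lineage genes were called higher because more were tested. DESeq2 called 25 genes higher in the control induction, 118 in the difference of the 2 inductions, and 60 higher and 59 lower in the uninduced repressor line, where a fit of the compared groups alone called 269 and 244. The cause of these shifts was not tested.

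Leaving out single libraries gave between 12 and 85 genes higher and 20 and 75 lower in the control induction, 484 to 867 lower in the repressor induction, 58 to 205 higher and 45 to 187 lower in the uninduced repressor line, and 929 to 1575 higher in the uninduced activator line. The extremes came without control uninduced library 3 (12), activator induced library 3 (85, 75 and 187), control induced library 3 (20), repressor induced library 2 (484), control uninduced library 2 (58 and 45) and control uninduced library 1 (929). Sco1 lay between -0.0013 and 0.056 and Tex2 between -0.053 and 0.021. Counts between 0 and 19 per library limit what can be said of the 9 genes outside the induced activator libraries.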

Other observations

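In the repressor induction 4 of the 55 tested genes of the 12 lineage lists were called higher and 2 lower, where 5.21% of all genes were called higher and 4.59% lower. One of the lower calls, Tek (-1.50 on the log2 scale, edgeR adjusted p = 0.0425), was not called when scaled to mitochondrially encoded genes (-1.52), with no filter (-1.51) or without uninduced repressor library 2 (-1.17) or 3 (-1.48) or induced repressor library 1 (-1.32), 2 (-1.59) or 3 (-1.64). In the control induction 0 of 55 were called in either direction, where 0.463% of all genes were. Of the 10 tested fibroblast markers 0 were called higher and 7 lower in the repressor induction, against the same 5.21% and 4.59% of all genes, among them Col1a2 (-0.36 on the log2 scale, edgeR adjusted p = 3.12e-21) and Col3a1 (-0.35). In the difference between the repressor and control inductions 0 were higher and 5 lower, against 1.19% and 1.54% of all genes. Before induction 4 of the 10 were already higher and 0 lower in repressor than in control cells, against 0.863% and 0.697% of all genes. Tnnt2 rose in the repressor induction (0.70 on the log2 scale, edgeR adjusted p = 2.68e-05) and fell in the activator induction, and the difference between these inductions, which ran for unlike times, was not tested. Among listed genes called in uninduced activator cells set against uninduced control cells was Cdh23 (1.18 on the log2 scale, edgeR adjusted p = 0.000201).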
